A study of Mus musculus with 20 samples.

Results

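Camp, Ngp, Ltf, Mmp8, Mmp9, Retnlg, Ly6g, Trem1 and Cxcr2 are genes that neutrophils switch on after the first granule stage of their maturation. They encode granule contents, secreted products and surface receptors. These 9 genes were taken by symbol from the deposited tables of RNA from monocytes and microglia of the mouse brain, as a check for neutrophil-lineage RNA in the monocyte libraries, and all 9 were found among the 16140 genes of the Cxcr4CreER table and the 16536 genes of the Cxcr4-GFP table. All samples were collected at day 3 of permanent photothrombosis, in which a dye activated by light blocks cortical vessels and causes a stroke. The Cxcr4CreER table holds 3 libraries each of KO monocytes, control monocytes, KO microglia and control microglia, where KO mice carry a conditional deletion of the chemokine receptor Cxcr4 and controls carry the same Cre driver. Monocytes of both genotypes were TdT-positive and microglia TdT-negative, so that population and reporter coincide, and in the KO microglia the deletion itself is not shown. Of these animals, 2 KO and 2 control mice gave both populations; KO monocytes 1 and KO microglia 2 came from the same mouse. The Cxcr4-GFP table holds 4 libraries of GFP-positive monocytes and 4 of GFP-negative microglia in pairs; 2 pairs were of individual mice, another of 2 mice together and the last of 5 pooled mice. Titles of the Cxcr4-GFP libraries carry the tag BrKo that also marks the KO libraries, and its meaning for these mice is not known here. The labels give no tamoxifen schedule, sex, age or gate against neutrophils.

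A neutrophil fills its granules in sequence while it matures in the bone marrow. Azurophil (primary) granules come first, at the promyelocyte stage, with proteases such as elastase. Specific granules follow, with lactoferrin and cathelicidin, then gelatinase granules, and the mature cell adds chemokine and activation receptors before it enters the blood. In the brain after a stroke, neutrophils and classical monocytes both arrive from the blood, and both express some of the same genes, Trem1 and Mmp8 among them. Camp encodes the cathelicidin antimicrobial peptide, Ngp the neutrophilic granule protein and Ltf lactoferrin, all proteins of the specific granules; Mmp8 is a collagenase, Mmp9 the gelatinase that names the gelatinase granule, and Retnlg a secreted resistin-like protein. Ly6g is the antigen by which mouse neutrophils are commonly sorted, Trem1 an activating receptor that amplifies inflammation, and Cxcr2 the receptor for neutrophil-attracting chemokines.

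The stretches upstream of the specific-granule genes are shown because these 3 genes varied most between the monocyte libraries and are textbook targets of C/EBP epsilon, a transcription factor of the granulocyte lineage. Each runs for 150 bases up to the base before the annotated start of the gene, 5′ to 3′ on the strand of the gene, from RefSeq on build GRCm38.p6. Capitals mark the C/EBP-type motif TTNNGNAAT, searched on both strands.
Camp: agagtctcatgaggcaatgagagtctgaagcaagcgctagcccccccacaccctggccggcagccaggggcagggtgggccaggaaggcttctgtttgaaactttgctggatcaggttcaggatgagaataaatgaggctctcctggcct
Ngp: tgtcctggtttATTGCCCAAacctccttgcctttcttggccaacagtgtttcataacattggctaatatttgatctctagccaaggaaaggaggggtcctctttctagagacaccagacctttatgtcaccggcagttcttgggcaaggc
Ltf: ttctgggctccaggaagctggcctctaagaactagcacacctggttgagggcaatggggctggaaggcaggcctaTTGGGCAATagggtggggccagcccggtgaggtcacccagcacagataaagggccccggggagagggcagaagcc
They lie at chr9:109849457-109849606 on the minus strand for Camp, chr9:110419658-110419807 on the plus strand for Ngp and chr9:111019142-111019291 on the plus strand for Ltf. Of the 8 genes of the set with an entry, 2 held the motif within 250 bases upstream, Ngp between positions -139 and -131 on the strand opposite to the gene and Ltf between -75 and -67 on its own strand. Read along the motif, both hold the same letters, TTGGGCAAT. The motif occurred in 10.2% of the 32851 promoters of this length, so a match describes the sequence and is not a binding site.

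The values are counts divided by a library size factor by the authors, called normalized counts below, and 1 read stands for 0.375 to 2.19 normalized counts in the Cxcr4CreER libraries (9.73 to 56.8 M reads) and for 0.104 to 2.58 in the Cxcr4-GFP libraries (0.617 to 14.9 M reads). Marker genes followed the labels: summed normalized counts of 10 monocyte markers ran from 140438 to 190228 in KO monocytes and from 142004 to 156278 in control monocytes, against 5095 to 7527 in KO microglia and 8090 to 11373 in control microglia. The 10 microglia markers summed to 22539 to 38767 in KO monocytes and 23942 to 33106 in control monocytes, against 244558 to 304035 in KO microglia and 189617 to 305899 in control microglia. Cxcr4, the deleted gene, had 784, 1010 and 536 normalized counts in KO monocytes and 1183, 1332 and 1166 in control monocytes, a gene-level value that does not show the deleted part. In the Cxcr4-GFP table, GFP monocytes 3, GFP microglia 3 and GFP microglia 4 had reads in 3029 to 5598 genes, against 10422 to 14498 in the other 5 libraries. In bulk RNA, fewer cells of a type and less RNA per cell cannot be told apart.

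The specific-granule genes Camp, Ngp and Ltf were present in monocyte libraries of both genotypes at levels that differed by orders of magnitude within each group. Camp had 1473, 0 and 159 normalized counts in KO monocytes 1, 2 and 3, and 11.1, 2015 and 110.0 in control monocytes 1, 2 and 3. The highest and the lowest library thus belong to different genotypes, and the groups overlap. Ngp had 2564, 26.3 and 0.668 normalized counts in the KO monocytes, the last a single read, and 0, 109.7 and 234 in the control monocytes. Ltf had 522, 0 and 0 normalized counts in the KO monocytes and 100.3, 10.97 and 71.6 in the control monocytes. KO monocytes 1 was the highest of the 6 monocyte libraries for Ngp and Ltf and second for Camp, and the library with most Camp, control monocytes 2, held little Ltf. In microglia, Ngp and Ltf had no read in any of the 6 libraries. Camp was at 0 in 5 microglia libraries and at 350.0 normalized counts, from 187 reads, in KO microglia 2.

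The gelatinase and collagenase genes and Retnlg were present in every monocyte library of the Cxcr4CreER table. Mmp8 had 1514, 589.9 and 677 normalized counts in KO monocytes and 242, 790.0 and 386 in control monocytes. Mmp9 had 604, 109.5 and 114 normalized counts in KO monocytes and 346, 57.1 and 80.6 in control monocytes. In each genotype a single library stood above the other two for Mmp9, while Mmp8 spread more evenly. Retnlg had 5927, 1244 and 2197 normalized counts in KO monocytes and 1120.4, 1231 and 1364 in control monocytes, with the control libraries close together and KO monocytes 1 far above the rest. All 3 genes were at 0 in the 6 microglia libraries, apart from a single read of Retnlg in KO microglia 3.

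Of the surface genes, Trem1 was high in every monocyte library, Ly6g was low or absent in most, and Cxcr2 was found in microglia as well. Ly6g had 258, 123 and 3.34 normalized counts in KO monocytes and 8.69, 0 and 10.2 in control monocytes, so that KO monocytes 3, with 5 reads, lay among the controls. Ly6g belongs to the Ly6 family of related genes, and whether reads were shared among them in this table is not known here. Trem1 had 2746, 3472 and 1869 normalized counts in KO monocytes and 2726, 1189 and 1794 in control monocytes. Among microglia, Trem1 was at 0 in 5 libraries and at 46.8 normalized counts, from 25 reads, in KO microglia 2. Cxcr2 had 364, 836 and 1409 normalized counts in KO monocytes and 115, 704 and 1947 in control monocytes. Its microglia values were even, with 217, 178 and 181 in KO microglia and 183, 309 and 221 in control microglia, and control monocytes 1 lay below all 6 of them.

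**Figure D1:**
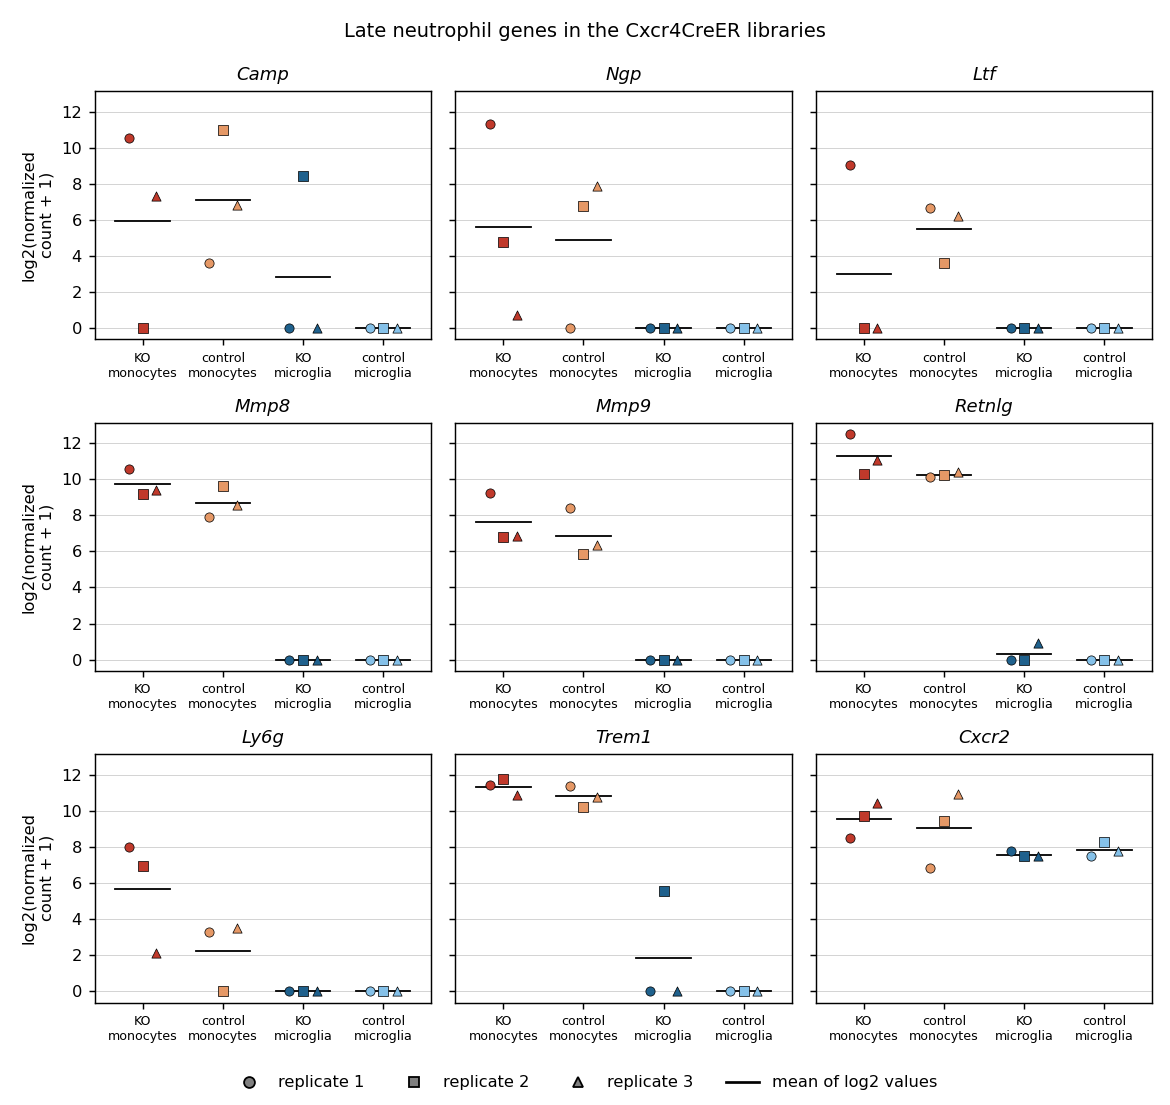
Normalized counts of the 9 genes in the 12 Cxcr4CreER libraries, as log2(normalized count + 1); each point is a library, its shape the replicate number and each bar the mean of the log2 values of a group. Retnlg, Trem1, Mmp8 and Mmp9 were above 0 in all 6 monocyte libraries, Camp, Ngp, Ltf and Ly6g were at 0 in some of them, and Cxcr2 was also above 0 in all 6 microglia libraries.

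The mix of the 9 genes differed from library to library. As a share of the reads of the 9 genes, not scaled by gene length and so read across libraries within a gene, Camp took 9.22% in KO monocytes 1, 0% in KO monocytes 2 and 2.47% in KO monocytes 3, against 0.24%, 33.0% and 1.83% in control monocytes 1, 2 and 3. Ngp took 16.1% in KO monocytes 1 and at most 3.90% in the other 5 monocyte libraries. Retnlg was the most even, with 37.1%, 19.4% and 34.2% in KO monocytes and 24.0%, 20.2% and 22.7% in control monocytes. For each 100 reads of S100a8 and S100a9, which encode the calprotectin subunits shared by neutrophils and classical monocytes, the 9 genes together had 26.02, 13.7 and 18.1 reads in KO monocytes and 31.2, 16.7 and 21.7 in control monocytes. The groups overlap in this ratio, and control monocytes 1, the lowest library for S100a8, has the highest.

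**Figure D2:**
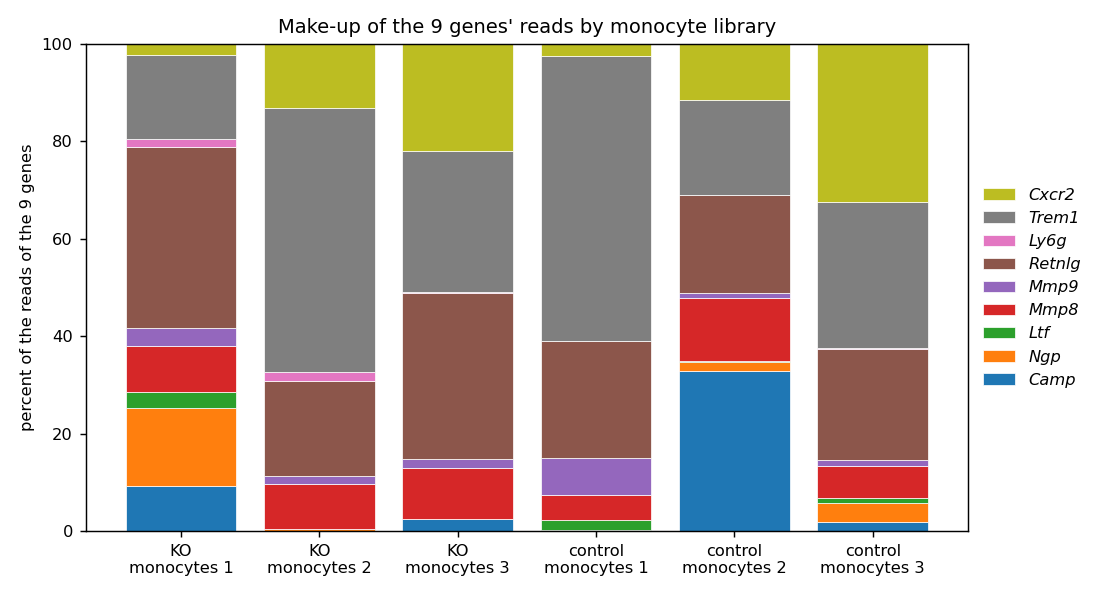
Share of the reads of the 9 genes that fell on each gene, in percent, in the 6 monocyte libraries of the Cxcr4CreER table. Camp took 33.0% in control monocytes 2 and 0% in KO monocytes 2, while Retnlg took between 19.4% and 37.1% in all 6.

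KO monocytes were compared with KO microglia in a limma fit over 12432 genes, in which 3.85% of genes were called higher at an adjusted p under 0.05. Of the 9 genes, 5 rose. Retnlg rose by 11.01 on the log2(value + 1) scale (SE 0.96, limma adjusted p = 5e-05), Mmp8 by 9.73 (SE 1.02, limma adjusted p = 0.000202), Trem1 by 9.49 (SE 1.36, limma adjusted p = 0.00154), Mmp9 by 7.63 (SE 1.17, limma adjusted p = 0.00234) and Ly6g by 5.69 (SE 1.52, limma adjusted p = 0.0444). The call of Ly6g was lost with the animal as a replicate block (limma adjusted p = 0.0509), with a pseudocount of 10, without the filter, with edgeR, in a fit of these groups alone, without the mouse of KO monocytes 1 and KO microglia 2, and in 5 of 6 fits that left out a library (limma adjusted p from 0.00948 to 0.147). Ngp (log2 5.61, SE 2.48), Camp (3.13, SE 2.91), Ltf (3.01, SE 2.04) and Cxcr2 (1.98, SE 0.89) did not pass, with limma adjusted p from 0.240 to 0.627. For 7 of the 9 genes every KO monocyte library lay above every KO microglia library, as did 12.7% of all tested genes in this direction. The exceptions were Camp, with KO microglia 2 above KO monocytes 2 and 3, and Ltf, at 0 in KO monocytes 2 and 3. All genes but Cxcr2 passed the filter on low values through their monocyte libraries, so these counts describe where the RNA lay.

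Against a floor of 3 reads over the KO microglia, where Mmp8, Mmp9 and Ly6g had none, Mmp8 was at least 763-fold higher in KO monocytes (521-fold without KO monocytes 1), Mmp9 at least 227-fold (92.0-fold without KO monocytes 1) and Ly6g at least 105-fold (51.8-fold without KO monocytes 1). Ngp was at least 711-fold higher, and only 11.1-fold without KO monocytes 1. Such floors cover counting error only, since these reads carry no molecular identifiers. Retnlg averaged 3123 ± 2475 normalized counts in KO monocytes and 0.287 ± 0.498 in KO microglia (SD, n = 3 each), the second mean from a single read.

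Control monocytes against control microglia gave 4 of the 9 genes higher, in a comparison where 3.46% of genes were called higher. Trem1 rose by 10.81 (SE 1.36, limma adjusted p = 0.000599), Retnlg by 10.27 (SE 0.96, limma adjusted p = 9.1e-05), Mmp8 by 8.72 (SE 1.02, limma adjusted p = 0.000383) and Mmp9 by 6.88 (SE 1.17, limma adjusted p = 0.00447). These 4 calls held in every alternative run for them. Camp (log2 7.12, SE 2.91), Ltf (5.48, SE 2.04), Ngp (4.89, SE 2.48), Ly6g (2.26, SE 1.52) and Cxcr2 (1.22, SE 0.89) did not pass, with limma adjusted p from 0.155 to 0.503. In 6 of the 9 genes every control monocyte library lay above every control microglia library, against 9.6% of all tested genes, and the exceptions were Ngp and Ly6g, each at 0 in a monocyte library, and Cxcr2. Control microglia had no read of any of the 9 genes but Cxcr2. Against the floor of 3 reads over that group, Trem1 was at least 2246-fold higher in control monocytes, Retnlg at least 1462-fold, Mmp8 at least 558-fold (370.4-fold without control monocytes 2) and Mmp9 at least 190.2-fold (81.2-fold without control monocytes 1). With 3 libraries a group, an exact permutation test of a single gene cannot go below p = 0.1. The median log2 difference of the 9 genes was 5.69 for KO monocytes against KO microglia and 6.88 for control monocytes against control microglia, beside -0.25 and -0.24 over all tested genes.

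None of the 9 genes passed the test between KO and control monocytes, in a comparison where 0.0402% of genes were called. Ly6g had the largest log2 difference, 3.44 (SE 1.52), with an unadjusted limma p of 0.0438 and a limma adjusted p of 0.802. It was the only gene of the set with an unadjusted p under 0.05. In the two-sided exact permutation test Ly6g had p = 0.3, where 3 libraries against 3 cannot go below 0.1. The shared spread included KO and control microglia, which had no read of Ly6g, Ngp, Ltf, Mmp8 or Mmp9. The limma errors of these genes thus draw partly on groups without any spread. Ltf differed by -2.46 (SE 2.04), but by 1.501 with edgeR and 1.51 with DESeq2, since its mean was 174 normalized counts in KO monocytes, all from KO monocytes 1, and 61.0 in control monocytes. Camp differed by -1.17 (SE 2.91). Retnlg differed by 1.03 (SE 0.96), Mmp8 by 1.01 (SE 1.02), Mmp9 by 0.74 (SE 1.17), Ngp by 0.72 (SE 2.48), Trem1 by 0.54 (SE 1.36) and Cxcr2 by 0.48 (SE 0.89). Of the 9 differences, 7 were positive, but Cxcr2 was at -0.013 with edgeR and -0.085 with DESeq2, and the signs of Camp, Ngp, Mmp9 and Cxcr2 turned in fits that left out a library. The median was 0.72 for the 9 genes and 0.05 for all tested genes. None of the 9 genes had KO and control monocytes without overlap, against 8.82% of all tested genes. edgeR and DESeq2 called 0 of the 9 as well. The wide errors mean that differences of several log2 units in Camp, Ngp and Ltf were not detectable with these libraries.

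**Figure D3:**
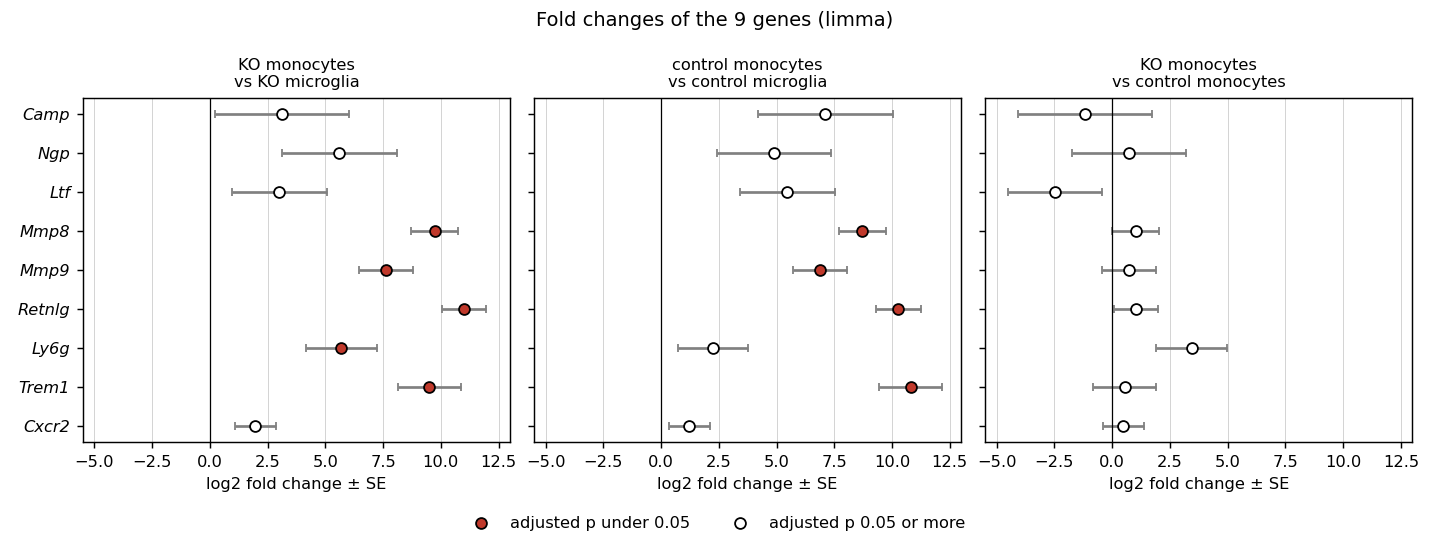
Log2 fold changes of the 9 genes with their standard errors in 3 comparisons of the Cxcr4CreER table, from limma on log2(normalized count + 1). Filled points have an adjusted p under 0.05: 5 genes for KO monocytes against KO microglia, 4 for control monocytes against control microglia and 0 for KO against control monocytes.

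Between KO and control microglia, 0 of the 9 genes passed the limma test (0 at an unadjusted p under 0.05; edgeR 0, DESeq2 2), and 0.0322% of all genes were called. Ngp, Ltf, Ly6g, Mmp8 and Mmp9 had no read in either group. Camp (log2 2.82, SE 2.91) and Trem1 (1.86, SE 1.36) owe their difference to KO microglia 2. That library also had 2089 normalized counts of S100a8, 462 of S100a9 and 116 of Lcn2, the siderophore-binding lipocalin of specific granules, against 0 to 58.6 of S100a8, 0 to 13.8 of S100a9 and 0 of Lcn2 in the other KO microglia. Its mouse also gave KO monocytes 1, where these 3 genes were at their highest. Retnlg, Ngp, Ltf, Ly6g, Mmp8 and Mmp9, all present in KO monocytes 1, had no read in KO microglia 2, and the part of other cells in its Camp and Trem1 values was not tested. The difference of the genotype effect between monocytes and microglia passed the test in 0 of the 9 genes, and 0.0% of all genes were called (limma, 590 of 12432 at an unadjusted p under 0.05, 0 of the 9 genes among them; edgeR 0 and DESeq2 276 of all genes).

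In the Cxcr4-GFP libraries the 9 genes were sparse. Trem1 had 143, 72.6, 0 and 182 normalized counts in GFP monocytes 1 to 4, against 0, 1.29, 0 and 0 in GFP microglia. Mmp8 had 62.7, 22.5, 0 and 41.2 normalized counts in GFP monocytes and 0, 0, 1.25 and 0 in GFP microglia. Mmp9 had 11.3, 7.28, 0 and 194 normalized counts in GFP monocytes and 0, 0, 1.25 and 0 in GFP microglia. These 3 genes were above all microglia in 3 of 4 monocyte libraries and at 0 in GFP monocytes 3, a library with few detected genes. Ngp had 0, 0, 262 and 121 normalized counts in GFP monocytes, and it was the only gene of the 9 with reads, 198 of them, in GFP monocytes 3. Among GFP microglia, Ngp had 1 read, in replicate 2. Cxcr2 had 3.13, 0, 0 and 121 normalized counts in GFP monocytes and 0, 4.30, 0 and 0 in GFP microglia. Ltf had 67.9 and Camp 4.85 normalized counts in GFP monocytes 4 alone, and neither had a read in the other 7 libraries. Retnlg had 33.9 in GFP monocytes 4 and 0.416 in GFP monocytes 2, and Ly6g a single read in GFP monocytes 2. GFP monocytes 4 therefore held 8 of the 9 genes, all but Ly6g, from 316 reads in all.

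**Figure D4:**
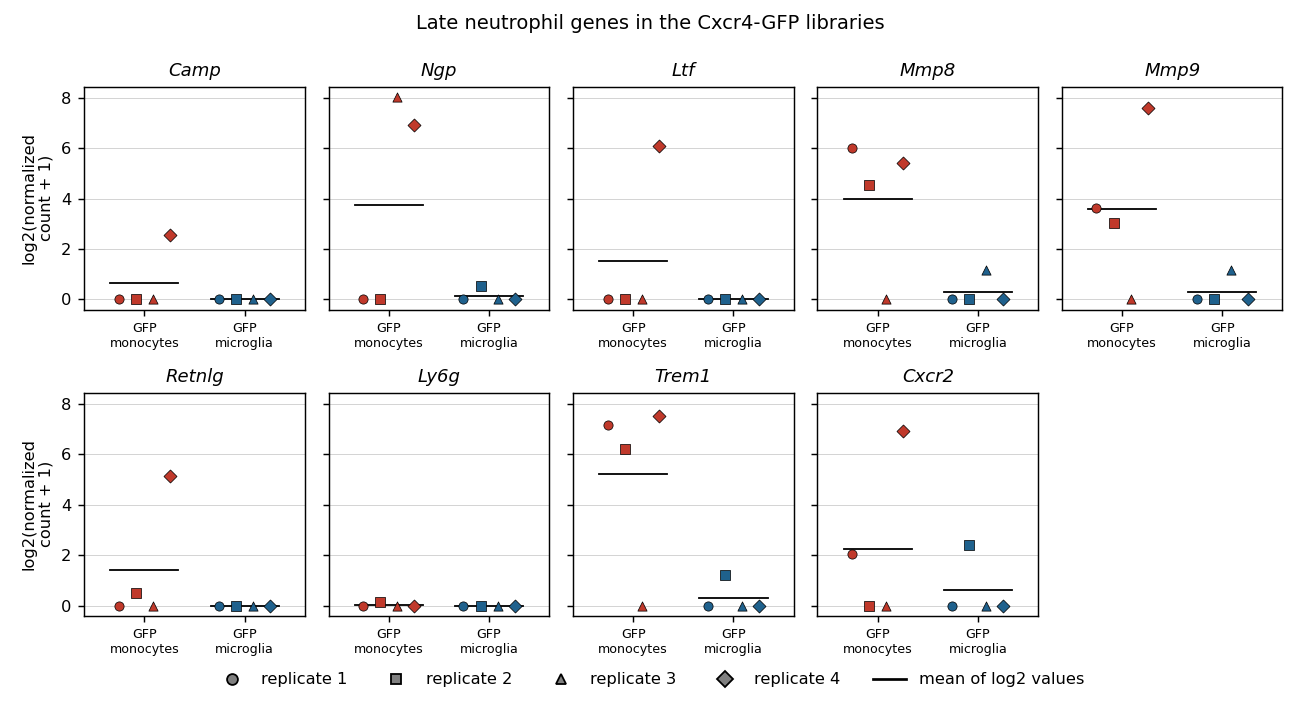
Normalized counts of the 9 genes in the 8 Cxcr4-GFP libraries, as log2(normalized count + 1); each point is a library, its shape the replicate number and each bar the mean of the log2 values of a group. GFP monocytes 4 was above 0 in 8 of the 9 genes, and GFP monocytes 3 in Ngp alone.

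None of the 9 genes reached 10 normalized counts in 4 Cxcr4-GFP libraries, so 0 of 9 entered the fit of 7706 genes, in which 0.908% were called in either direction. Without the filter, limma and edgeR called 0 of the 9, and at an unadjusted p under 0.05 limma had Trem1 (log2 4.92, SE 1.98) and Mmp8 (log2 3.69, SE 1.72), both with an adjusted p of 0.837. DESeq2 without the filter called Trem1 alone (log2 7.48, SE 1.98, adjusted p = 0.0128). In the two-sided exact permutation test, Trem1, Mmp8 and Mmp9 each had p = 0.143, where 4 libraries against 4 can reach 0.0286. Trem1 averaged 99.5 ± 80.3 normalized counts in GFP monocytes and 0.323 ± 0.645 in GFP microglia (SD, n = 4 each), a ratio of 308. The microglia mean rests on 3 reads of GFP microglia 2, where 1 read stands for 0.430 normalized counts. In the other GFP microglia libraries, all without a read, 1 read stands for 1.25 to 2.58, so the ratio is poorly bounded.

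Other neutrophil-lineage genes were measured beside the 9. Of 19 tested genes of a list of granule and secreted products, 13 rose in KO monocytes against KO microglia (median log2 6.84) and 11 in control monocytes against control microglia (median 5.76); of all tested genes 3.85% and 3.46% were called higher. Many of the list, such as Lyz2 and Chil3, belong to monocytes as well, and many passed the filter through the monocyte libraries. Lyz2, which encodes lysozyme, rose by 3.81 (SE 0.21) in KO monocytes and by 3.63 (SE 0.21) in control monocytes, each against its microglia. The chitinase-like gene Chil3 rose by 11.48 (SE 1.03) and 10.91 (SE 1.03), and the protease inhibitor gene Slpi by 9.88 (SE 1.15) and 10.11 (SE 1.15), in the same order. Anxa1, the annexin of resolving inflammation, rose by 12.46 (SE 1.33) and the haptoglobin gene Hp by 10.68 (SE 1.41) in control monocytes. Of 14 tested surface genes, 7 rose and 2 fell in KO monocytes against KO microglia, and 6 rose and 3 fell in control monocytes against control microglia, where Fcgr3, Itgam and Selplg were lower. Of all tested genes, 2.98% were called lower in KO monocytes and 3.06% in control monocytes. Clec4d, a lectin receptor, rose by 10.46 (SE 1.15), Ly6c2 by 14.22 (SE 1.69) and Cxcr4 by 9.24 (SE 1.10) in KO monocytes, and Cxcr4 by 9.21 (SE 1.10) in control monocytes. Ly6c2, and Chil3 of the granule list, are also among the monocyte markers used here, so their rise is not particular to neutrophil-lineage RNA. Whether the other surface genes rose through neutrophils or monocytes was not tested. Of 6 tested transcription factors of neutrophil differentiation, 0 were called in KO monocytes against KO microglia and 1, Cebpb, rose in control monocytes against control microglia. In the Cxcr4-GFP table, Lyz2 (log2 4.94, SE 0.65), Cybb of the phagocyte oxidase (4.22, SE 0.85), Cxcr4 (9.37, SE 1.30) and Ly6c2 (9.12, SE 1.85) rose in monocytes, and the selectin ligand gene Selplg fell by 3.99 (SE 0.71). In both tables the populations were split on Cxcr4-based reporters, so the rise of Cxcr4 is not independent of that split.

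S100a8 had 47075, 38567 and 28295 normalized counts in KO monocytes and 10982, 29643 and 20080.5 in control monocytes, and it rose against microglia by 9.54 (SE 2.28, limma adjusted p = 0.0267) in KO and by 9.10 (SE 2.28, limma adjusted p = 0.0349) in control monocytes. S100a9 had 14315, 8029 and 7254 normalized counts in KO monocytes and 3979, 6908 and 7575 in control monocytes, and rose by 8.95 (SE 1.84) and 10.96 (SE 1.84) against microglia. The S100a8 calls were lost with edgeR (adjusted p = 0.136 in KO and 0.0772 in control animals) in 5 of 6 fits that left out a library in each genotype and, in KO animals, in the fit of these groups alone (adjusted p = 0.0642), and the S100a9 call in KO animals with edgeR (adjusted p = 0.102) and without KO monocytes 1. Neither gene passed the test between KO and control monocytes. Lcn2 had 708, 429 and 188 normalized counts in KO monocytes and 74.2, 0 and 80.6 in control monocytes. The log2 difference of 4.40 (SE 2.08) did not pass (limma adjusted p = 0.830). Csf3r, the G-CSF receptor, was at 807, 202 and 244 normalized counts in KO monocytes and 1468, 1075 and 1271 in control monocytes. Microglia had 951 to 1711 in KO and 533 to 1561 in control animals. The log2 difference of Csf3r between KO and control monocytes was -1.88 (SE 0.59, limma adjusted p = 0.589). For Lcn2 and Csf3r, in opposite directions, KO and control monocytes did not overlap, as was so for 8.82% of all tested genes in either direction.

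Primary-granule genes precede the 9 genes in neutrophil maturation. The list taken for them held 8 genes, Mpo, Elane, Prtn3, Ctsg, Ms4a3, Ctsc, Calr and Nkg7, not all of them confined to that granule. These 8 summed to 28478 to 37659 normalized counts in KO monocytes and 21416 to 23270.1 in control monocytes. In KO microglia the sums were 23075 to 28186, and in control microglia 19176 to 28050. Ctsc and Calr, which many cells express, were read in all 4 groups. Of 5 tested, 3 were called higher in KO monocytes against KO microglia and 0 in control monocytes against control microglia. Of all tested genes, 3.85% and 3.46% were called higher. Elane, Prtn3, Ctsg and Mpo were found mainly in KO monocytes. Whether their reads came from neutrophils or from the monocytes themselves was not tested. Elane, the neutrophil elastase gene, had 2161, 306 and 119 normalized counts in KO monocytes and no read in the other 9 libraries. Between KO and control monocytes, where 0.0402% of all genes were called, Elane was the only gene of the neutrophil lists called (log2 8.75, SE 1.14, limma adjusted p = 0.0207). That call was lost in 5 of 14 alternatives, edgeR (adjusted p = 0.708), DESeq2 (0.132), a pseudocount of 10, the fit of these groups alone (0.681) and the fit without control monocytes 2. Elane passed the filter through the KO monocytes alone, and the shared spread included 3 groups with no read. Prtn3, proteinase 3, had 732, 468 and 248 normalized counts in KO monocytes and 0, 0 and 12.8 in control monocytes (limma adjusted p = 0.132). Ctsg, cathepsin G, had 752, 349.5 and 58.1 normalized counts in KO monocytes and 0, 0 and 98.5 in control monocytes. Mpo, myeloperoxidase, had 819, 462 and 0 normalized counts in KO monocytes and 0 in all control monocytes. All 4 genes were highest in KO monocytes 1, which was also the highest library for Ngp, Ltf, Mmp8, Mmp9, Retnlg and Ly6g. Eosinophil markers were also highest there: the 7 listed summed to 4830, 709.5 and 429 normalized counts in KO monocytes 1, 2 and 3, with reads of 6, 3 and 3 of them, and to 148, 68.0 and 113 in control monocytes, with reads of 3, 1 and 3. Eosinophil marker sums ran from 171 to 617 in KO microglia and from 0 to 132 in control microglia. The eosinophil peroxidase gene Epx had reads in KO monocytes 1 alone among the monocytes (318 normalized counts). Erythroid markers, 3 of them listed, summed to 1520.2, 2.63 and 53.4 in KO monocytes and to 0, 0 and 270 in control monocytes. Microglia held them too, at 397 to 3516 in KO and 701 to 2090 in control animals. T cell markers, 5 of them listed, summed to 92.8 to 653 in KO monocytes and 26.8 to 108 in control monocytes. Their sums were 110 to 157 in KO microglia and 117 to 241 in control microglia. The basophil protease gene Mcpt8 had 316 in KO monocytes 2 and 0 in the other 5 monocyte libraries. The part of these cells in the values of the neutrophil genes was not tested. KO monocytes 2 had Elane, Prtn3, Ctsg and Mpo with no read of Camp or Ltf, and control monocytes 2 had 2015 normalized counts of Camp with no read of any of the 4.

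**Figure D5:**
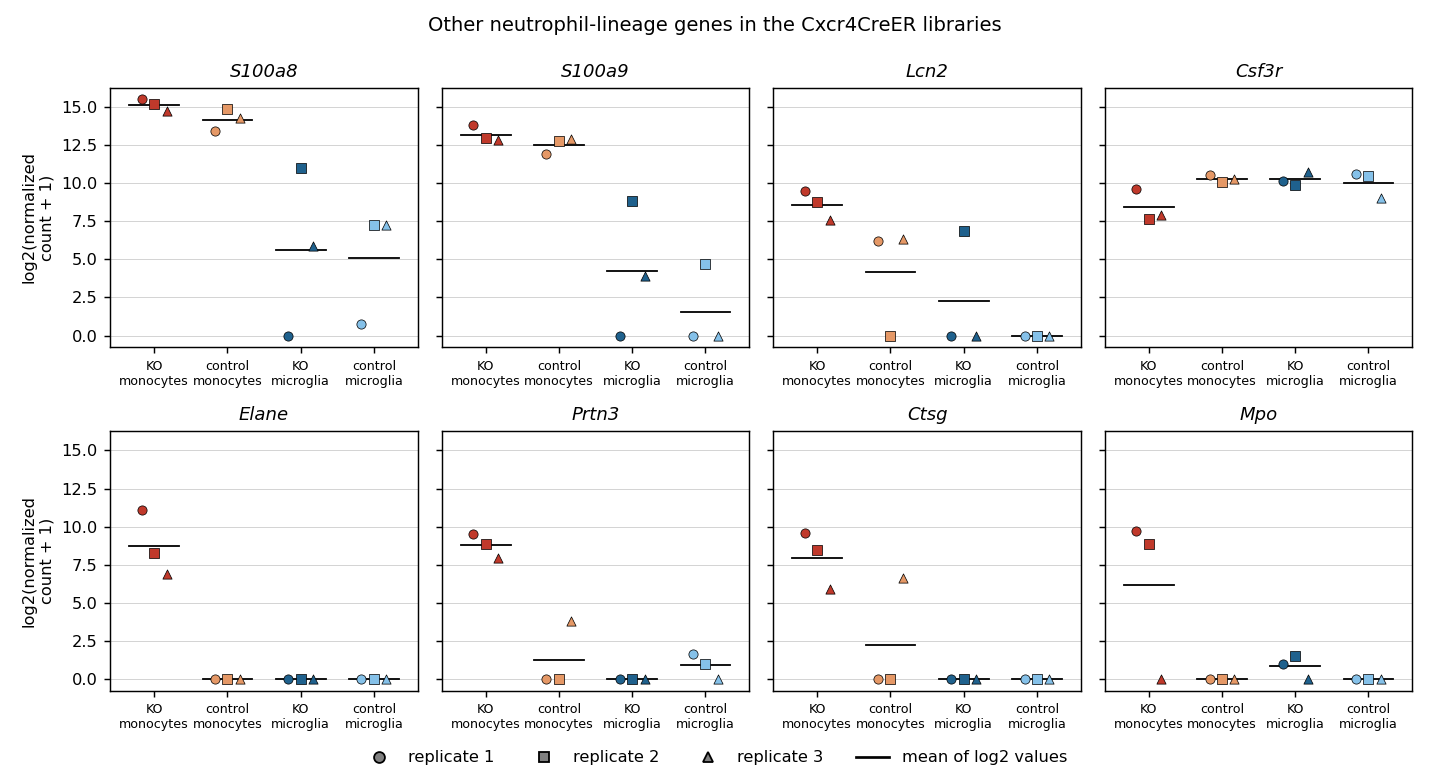
Normalized counts of 8 other neutrophil-lineage genes in the 12 Cxcr4CreER libraries, as log2(normalized count + 1), with points, shapes and bars for libraries, replicates and group means of the log2 values. Elane had reads in the 3 KO monocyte libraries alone, and Csf3r was above 0 in all 12 libraries.

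For each of the 9 genes, the genes with the most similar profile over the 6 monocyte libraries of the Cxcr4CreER table were sought among 9374 genes, by the mean absolute difference of log2(value + 1) after centring. The nearest gene was Psma1 for Trem1 (0.07), Sh2b2 for Mmp8 (0.15), Ccdc8 for Retnlg (0.18), Carnmt1 for Cxcr2 (0.27), Trove2 for Mmp9 (0.30), Otud6b for Ly6g (0.56), Marveld1 for Ltf (0.74), Secisbp2 for Camp (0.75) and Aqp9 for Ngp (1.46). In no case was either of the nearest 2 genes another of the 9, which says little, since the 9 are few among 9374 genes. With 6 libraries and so many genes, close profiles can also arise between unrelated genes. Whether the 9 genes varied together was not tested. The mean profile of the 9 genes was nearest to Zbtb9 (0.28), Jpx (0.31), Slc7a6os (0.47), Gbp2 (0.48) and Stambpl1 (0.49). The distances grow with the gene's own mean deviation from its centre, which was 0.45 for Trem1 and 3.41 for Ngp. The comparison describes these 6 libraries, of 10.4 to 56.8 M reads, alone.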

How the data were processed

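The deposited signal is in counts normalized by the authors with DESeq2 per the submitters' processing notes, which also name CASAVA 1.82 (Cxcr4-GFP; total RNA, Nugen Ovation SoLo per the labels) and bcl2fastq 2.20 and kallisto (Cxcr4CreER; polyA RNA, SMART-Seq2). The genome build, annotation and Cxcr4-GFP aligner were not given in the sources used here. Whole reads were recovered, since 100% of the nonzero values fell on multiples of the value of 1 read (tolerance 0.01). Normalization was separate for each table, so levels are not compared across tables.

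Genes reaching 10 in 3 (Cxcr4CreER) or 4 (Cxcr4-GFP) libraries or more were tested with limma 3.58.1 (trend, two-sided) in R 4.3.3 on log2(value + 1). The 4 Cxcr4CreER groups shared an estimate of the spread, and calls were made at 0.05 after Benjamini-Hochberg adjustment across every gene in the fit. The code was tested on simulated data with changes in well-read genes, which does not cover genes at 0 in whole groups. Alternatives were a pseudocount of 10, no filter, CPM and TMM scaling, edgeR 4.0.16 and DESeq2 1.42.0 on the recovered reads (DESeq2 called 338 and edgeR 0 genes between KO and control monocytes), the animal as a block, the groups compared alone, and each library left out. Libraries were paired by the animal numbers in their titles; the consensus correlation within animals was -0.07 in the Cxcr4CreER table. Replicates come from separate mice or pools. The 9 genes are those of the named set, given in every library; of the other lists, values are given for called genes, up to 6 a comparison by smallest p, and for 8 fixed genes; genes of like profile had a mean of 50 or more in KO or control monocytes. The members and lists were chosen with earlier results of these data known.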

Additional observations from a re-analysis of the deposited data

Results flagged for a closer look

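In groups of 4 Cxcr4-GFP libraries, a library was marked where its gap to the nearest other library took up nearly the whole range of its group; chance marks about 1 in 20 groups of spread-out values, but where 3 of 4 libraries are at 0 any read in the fourth is marked, as for most of those below. GFP monocytes 4 stood apart in this way for Camp (4.85 normalized counts), Ltf (67.9), Retnlg (33.9), Mmp9 (194), Cxcr2 (121), S100a8 (259), S100a9 (383), Lcn2 (55.7), Ctsg (4.85) and Prtn3 (2.42), of which Camp, Ctsg and Prtn3 rest on 1 or 2 reads. GFP monocytes 2 stood apart for Ly6g, at 0.104 from 1 read. GFP microglia 2 stood apart for Ngp (0.430, 1 read), Trem1 (1.29, 3 reads), Cxcr2 (4.30, 10 reads) and S100a9 (2.58, 6 reads). GFP microglia 3 stood apart for Mmp8, Mmp9 and Lcn2, each at 1.25 from 1 read.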

How the results depend on the processing

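Among the 9 genes, Retnlg, Trem1, Mmp8 and Mmp9 stayed called in both comparisons of monocytes with microglia under every alternative of the Cxcr4CreER table, and the count ran from 4 to 7 in KO and from 4 to 6 in control animals, the highest with DESeq2, which added Ltf and Ngp in KO and Camp and Ltf in control monocytes. With each library left out, it was 4 to 5 in KO and 4 in control animals. With the replicate block, 4 of the 9 genes were called in KO animals, without Ly6g, and 4 in control animals; no other call changed. DESeq2 alone called 2 genes between KO and control microglia (Camp and Trem1, with reads in KO microglia 2 alone), 1 gene for the difference of the genotype effects (Camp) and, with no filter, 1 in the Cxcr4-GFP table (Trem1). The last setting, its edgeR counterpart and the one without the mouse of KO monocytes 1 and KO microglia 2 were chosen after seeing the data. In KO against control monocytes, signs of uncalled genes turned: Ltf was at 1.501 with edgeR and 1.51 with DESeq2, and Cxcr2 at -0.013 and -0.085. With each library left out, Camp ran from -3.46 to 1.80, Cxcr2 from -0.63 to 1.40, Mmp9 from -0.064 to 1.52 and Ngp from -2.14 to 3.16. In KO monocytes against KO microglia, Ltf was at 0.00 without the mouse of KO monocytes 1 and KO microglia 2, and ran from 0.00 to 4.52 with each library left out. The causes were not tested. Lyz2, Chil3, Slpi, Cxcr4, Clec4d, Ly6c2, Anxa1 and Hp kept their Cxcr4CreER calls under every alternative run, while Cybb and Selplg in the Cxcr4-GFP table each lost theirs in 2 of 17. CPM scaling moved the median log2 of all genes from -0.25 to -0.48 for KO and from -0.24 to -0.40 for control monocytes against microglia, and from 0.51 to 0.65 in the Cxcr4-GFP table, and turned no sign among the 9 genes. The number of genes called over the whole table ran from 299 to 1570 for KO and from 386 to 1614 for control monocytes against microglia, and from 0 to 338 between KO and control monocytes. Depth limits low values, since 1 read is worth up to 2.58 normalized counts in the Cxcr4-GFP table and up to 2.19 in the Cxcr4CreER table.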
